A study of Bos grunniens and Bos grunniens x Bos taurus with 6 samples.

Results

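LAMA2, LAMB1, LAMC1 and LAMC3 are genes for 4 chains of laminin, the cross-shaped protein at the core of basement membranes. They were chosen with earlier results of these data known, were taken by symbol, and are 4 of 26961 features measured in single cells of yak and cattle-yak testis. In the files they carry the identifiers ENSBGRG00000012099 (LAMA2), ENSBGRG00000005449 (LAMB1), ENSBGRG00000011557 (LAMC1) and ENSBGRG00000009568 (LAMC3), each on 1 feature. The libraries were 1 cattle-yak (Bos grunniens x Bos taurus) after sexual maturity, with no age given in the labels, and 5 yaks (Bos grunniens). The yak libraries were 2 prepubertal at 6 months (replicates 1 and 2), 2 adolescent at 18 months (replicates 3 and 4) and 1 sexually mature at 4 years (replicate 5). The labels give no treatment. All tissue had been frozen, was thawed, and was dissociated with collagenase and hyaluronidase followed by trypsin. The resulting cells were kept in serum-containing medium before 10x Genomics libraries were made from polyA RNA. The labels do not say that replicates are separate animals, so p-values of the tests between ages measure the spread between these libraries. P-values that involve a difference between cell classes measure how far that difference varied over the libraries.

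A laminin is a trimer of 1 alpha, 1 beta and 1 gamma chain, joined by a coiled coil. The alpha chain ends in globular domains that bind integrins and dystroglycan, and the short arms link trimers into a sheet. In the testis, basement membranes lie around the seminiferous tubules, between Sertoli and spermatogonial cells on the inside and peritubular myoid cells on the outside, and around blood vessels. LAMA2 encodes alpha 2, the chain of the laminin of muscle and nerve, and its loss causes a congenital muscular dystrophy in humans. LAMB1 encodes beta 1, the most widely shared beta chain. LAMC1 encodes gamma 1, the common gamma chain, and LAMC3 encodes gamma 3, a gamma chain with a narrower distribution that has been described in rat testis at the junction between Sertoli cells and spermatids.

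Of 40564 barcodes, 29240 were kept, and 14469 of these (49.5%) were given a class from summed UMIs of marker genes. A UMI is a molecular tag that counts 1 RNA molecule once, and levels are UMIs of a gene per 1000000 UMIs of the same cells (CPM). Kept libraries held 7791257 to 17299247 UMIs, with medians of 1467 to 2074 UMIs per cell. The filter on mitochondrial UMIs removed 38.0% of barcodes in replicate 3, the highest share, and 2.30% in replicate 1, the lowest. The labels carry the tag of a germ cell line, whereas most of the classes found were somatic, with stroma, Sertoli, mural, endothelial, lymphocyte, macrophage and spermatogonial cells in every library. In the stromal class, the 9 stromal markers summed to 3747 to 9143 CPM and Sertoli markers to 0 to 316 CPM. Libraries shared between 5 and 16 barcodes. No marker used to assign a class was a laminin or another basement membrane gene.

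LAMA2 was highest in the stromal class, the connective tissue cells marked by genes such as DCN and PDGFRA. In stroma, LAMA2 stood at 317 CPM in the cattle-yak, at 252 and 179 CPM in the yaks of 6 months, at 372 and 253 CPM in those of 18 months and at 520 CPM at 4 years. In mural cells, which hold smooth muscle, pericytes and peritubular myoid cells, it stood at 38.9 CPM in the cattle-yak, 26.0 and 49.6 CPM at 6 months, 24.0 and 25.4 CPM at 18 months and 48.5 CPM at 4 years. The lowest stromal value was therefore above the highest mural value. In lymphocytes, the class used here as the measure of free RNA, LAMA2 stood between 0.972 and 7.71 CPM over the 6 libraries. Whether lymphocytes transcribe any of the chains themselves was not tested. The log2 difference of stroma over the mean of the other classes was 5.18 ± 0.24 (SE; edgeR, adjusted p = 5.42e-21), and stroma exceeded mural cells by 3.00 ± 0.34 (edgeR, adjusted p = 5.06e-09). Here and below, the SE of an edgeR estimate was worked back from the estimate and the F statistic of its test. It is less dependable for estimates near 0.

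LAMC3 showed the same order of the leading classes. Its stromal level was 592 CPM in the cattle-yak, 344 and 320.2 CPM at 6 months, 422 and 269 CPM at 18 months and 704 CPM at 4 years. Its mural level was 69.1 CPM in the cattle-yak, 57.2 and 67.1 CPM at 6 months, 70.4 and 81.2 CPM at 18 months and 164 CPM at 4 years. Again no mural value reached the stromal range. Stroma exceeded the mean of the other classes by 4.93 ± 0.23 log2 units (edgeR, adjusted p = 2.66e-21), mural cells by 2.10 ± 0.31 (adjusted p = 1.31e-06) and endothelial cells by 6.25 ± 0.41 (adjusted p = 5.70e-16). In endothelial cells LAMC3 stood between 1.44 and 9.34 CPM, and in lymphocytes between 0.972 and 17.2 CPM. Endothelial cells were not called as different from lymphocytes in LAMC3 (log2 difference -0.65 ± 0.54, edgeR, adjusted p = 0.367).

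LAMB1 was highest in stroma and also stood well above the lymphocyte level in both vascular classes. Stroma held 311 CPM in the cattle-yak, 232 and 239.9 CPM at 6 months, 518 and 156 CPM at 18 months and 268 CPM at 4 years. Mural cells ranged from 53.3 to 117 CPM and endothelial cells from 39.2 to 98.9 CPM over the 6 libraries, 2 ranges that overlapped. Lymphocytes ranged from 0 to 4.86 CPM. Stroma exceeded mural cells by 1.65 ± 0.21 log2 units (edgeR, adjusted p = 8.75e-08) and endothelial cells by 2.07 ± 0.21 (adjusted p = 8.31e-11). Mural and endothelial cells were not called as different (0.42 ± 0.22, edgeR, adjusted p = 0.176). Endothelial cells exceeded lymphocytes by 4.01 ± 0.31 log2 units (edgeR, adjusted p = 1.76e-14).

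LAMC1 was spread over stroma, mural and endothelial cells with no order among the 3 classes that passed the test. Stromal LAMC1 stood at 117 CPM in the cattle-yak, 29.7 and 21.7 CPM at 6 months, 88.2 and 36.2 CPM at 18 months and 83.9 CPM at 4 years. Endothelial LAMC1 stood at 39.2 CPM in the cattle-yak, 34.5 and 49.8 CPM at 6 months, 84.3 and 24.5 CPM at 18 months and 79.7 CPM at 4 years. Mural LAMC1 ran from 5.20 CPM in replicate 1 of 6 months (1 UMI) to 95.9 CPM in replicate 3 (64 UMIs), so that the 3 ranges overlapped throughout. The log2 difference was 0.54 ± 0.36 for stroma over mural cells (edgeR, adjusted p = 0.288), 0.27 ± 0.34 for stroma over endothelial cells (adjusted p = 0.583) and -0.27 ± 0.36 for mural over endothelial cells (adjusted p = 0.671). Each of the 3 classes lay above the mean of the others, by 2.02 ± 0.32 in stroma (adjusted p = 2.05e-06), 1.39 ± 0.37 in mural cells (adjusted p = 0.00368) and 1.70 ± 0.33 in endothelial cells (adjusted p = 4.67e-05). The mural call did not hold under the stricter cell filter or without replicate 3.

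**Figure D1:**
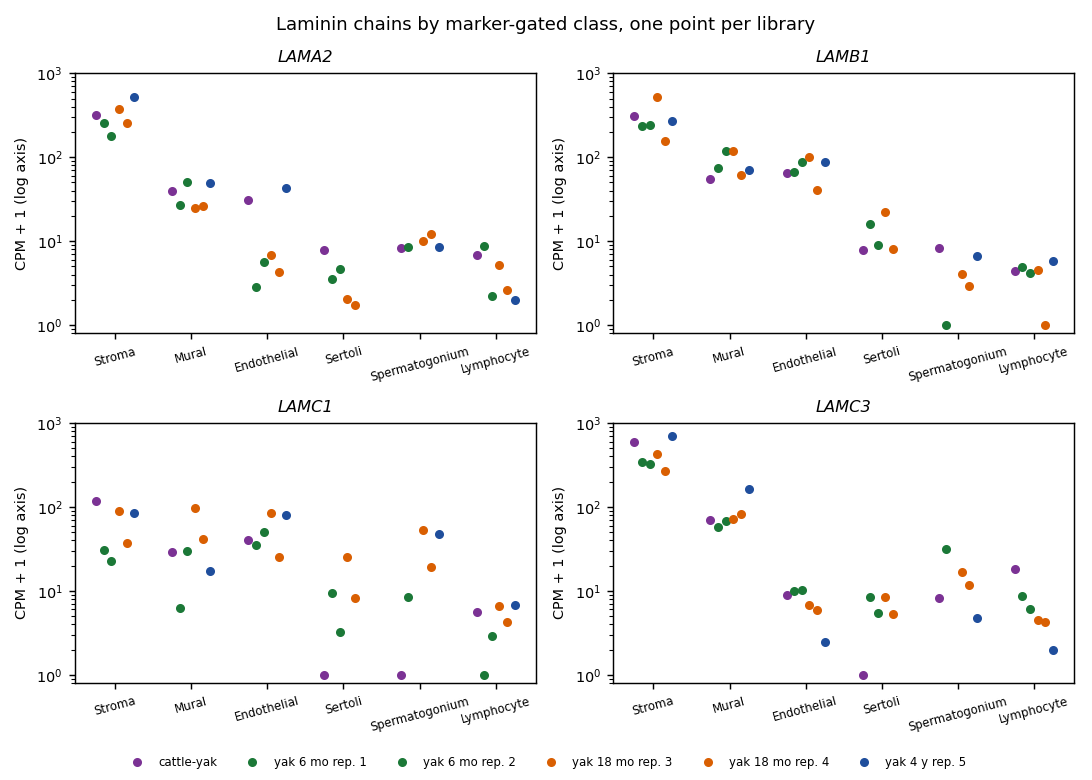
Level of each laminin chain in 6 marker-gated classes, 1 point per library with at least 20 cells of the class, on a log axis of CPM + 1; colours mark the cattle-yak and the yak ages. All 6 stromal points of LAMA2 and LAMC3 lie above all mural points, those of LAMC1 overlap mural and endothelial points, and the endothelial points of LAMA2 are high in the cattle-yak and at 4 years only among the 6 libraries.

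Counted over the chains, 4 of 4 passed the test as higher in stroma than in the mean of the other classes, against 38.5% of 8929 genes called in either direction in that contrast. In mural cells 4 of 4 were higher, against 24.8% called. Of these, LAMA2 was lost with the stricter marker gate (0.95, edgeR, adjusted p = 0.0595), and LAMC1 with the stricter cell filter (0.50, adjusted p = 0.385) and without replicate 3 (1.08, adjusted p = 0.0911). In endothelial cells LAMB1 and LAMC1 were higher, LAMC3 was lower by 2.36 ± 0.45 log2 units (edgeR, adjusted p = 4.08e-05), and LAMA2 was not called (-0.01, adjusted p = 1), against 34.2% of genes called. In lymphocytes 4 of 4 were lower, against 39.1%; LAMC1 was lost with the stricter marker gate (-1.80, edgeR, adjusted p = 1) and LAMC3 without replicate 4 (-1.25, adjusted p = 0.129). Among pairs of classes, 3 of 4 chains were called between stroma and mural cells (25.6% of genes called), 3 of 4 between stroma and endothelial cells (34.8%) and 2 of 4 between mural and endothelial cells (23.7%), namely LAMA2 and LAMC3. The LAMA2 call of that pair was lost without replicate 2 (1.10, edgeR, adjusted p = 0.0557) and with the stricter marker gate (0.64, adjusted p = 0.293). Between endothelial cells and lymphocytes 3 of 4 were called (39.7%). Such shares are high for any gene in contrasts between cell classes, and the median log2 difference of stroma over the mean of the others was 4.70 for the 4 chains and 0.08 for all genes tested. The 4 chains were chosen with earlier results of these data known. These counts and medians therefore describe the 4 chains and are no evidence about laminin chains in general. Stromal markers were also present in mural cells, at a summed 862 to 1085 CPM against 3747 to 9143 CPM in stroma, and their part in the mural levels of LAMA2 and LAMC3 was not tested.

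Sertoli cells, which support germ cells and face the tubular basement membrane, held little of any of the chains. LAMB1 stood at 6.85 CPM in the cattle-yak, 15.0 and 8.06 CPM in the yaks of 6 months, and 21.0 and 7.12 CPM in those of 18 months. LAMC1 stood at 0 CPM in the cattle-yak, 8.41 and 2.20 CPM in the yaks of 6 months, and 24.1 and 7.30 CPM in those of 18 months. Both were above lymphocytes, by 2.26 ± 0.35 log2 units for LAMB1 (edgeR, adjusted p = 6.08e-07) and 1.73 ± 0.51 for LAMC1 (adjusted p = 0.00426). LAMA2 (0.15 ± 0.67, adjusted p = 0.878) and LAMC3 (0.22 ± 0.49, adjusted p = 0.740) were not called, so that 2 of 4 chains passed where 50.1% of genes did. In Sertoli cells of the 18-month and 6-month yaks the LAMC3 level was 4.27 to 7.43 CPM. The 4-year library had 19 Sertoli cells, too few for a level.

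Spermatogonia, the germ cells that rest on the tubular basement membrane, differed from lymphocytes in LAMC1. LAMC1 stood at 0 CPM in 25 cells of the cattle-yak, where 3 UMIs would have given 21.8 CPM, at 52.6 and 18.3 CPM at 18 months and at 46.5 CPM at 4 years; replicate 1 had 7.53 CPM, from 1 UMI in 21 cells. Lymphocytes were lower than spermatogonia by 1.84 ± 0.49 log2 units (edgeR, log2 difference -1.84, adjusted p = 0.00142). The other chains were not called between these classes, with LAMB1 at 0.95 ± 0.48 (adjusted p = 0.0821), LAMA2 at -0.77 ± 0.58 (adjusted p = 0.251) and LAMC3 at -0.06 ± 0.50 (adjusted p = 0.932), so 1 of 4 passed where 61.8% of genes did. Later germ cells were found mainly at 4 years, with 406 spermatocytes and 237 spermatids. The spermatocytes held 5 UMIs of LAMA2, 5 of LAMB1, 3 of LAMC1 and 1 of LAMC3, and the spermatids held 3, 4, 4 and 1 UMIs in the same order of chains. LAMC3 thus stood at 0.286 CPM in yak spermatocytes and 1.27 CPM in spermatids of that library, no higher than in its endothelial cells (1.44 CPM).

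Within stroma, no chain was called between 18 and 6 months, and the libraries of 18 months differed widely from each other. LAMA2 averaged 313 ± 84.2 CPM at 18 months and 216 ± 51.1 CPM at 6 months (SD, n = 2 each), and the log2 fold change of 18 over 6 months was 0.20 ± 0.43 (SE; edgeR, adjusted p = 0.845). LAMC3 averaged 346 ± 108 CPM at 18 months and 332 ± 17.2 CPM at 6 months (log2 fold change -0.29 ± 0.44, adjusted p = 0.769). LAMB1 averaged 337 ± 256 CPM at 18 months and 236 ± 5.40 CPM at 6 months (0.10 ± 0.50, adjusted p = 0.945). For LAMC3 and LAMB1 the 6-month values lay between the 2 values of 18 months, whereas for LAMA2 both 18-month values were above both of 6 months. LAMC1 averaged 62.2 ± 36.8 CPM at 18 months and 25.7 ± 5.63 CPM at 6 months, with 0.94 ± 0.39 log2 units (unadjusted p = 0.0317 and adjusted p = 0.300 in edgeR). In all, 0 of 4 chains were called in stroma, where 0.96% of 7707 genes were, with 1111 of all genes and 1 chain under an unadjusted p of 0.05 and 0 chains called by DESeq2. LAMC1 was called as higher without replicate 4 (1.06, edgeR, adjusted p = 0.0362).

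**Figure D2:**
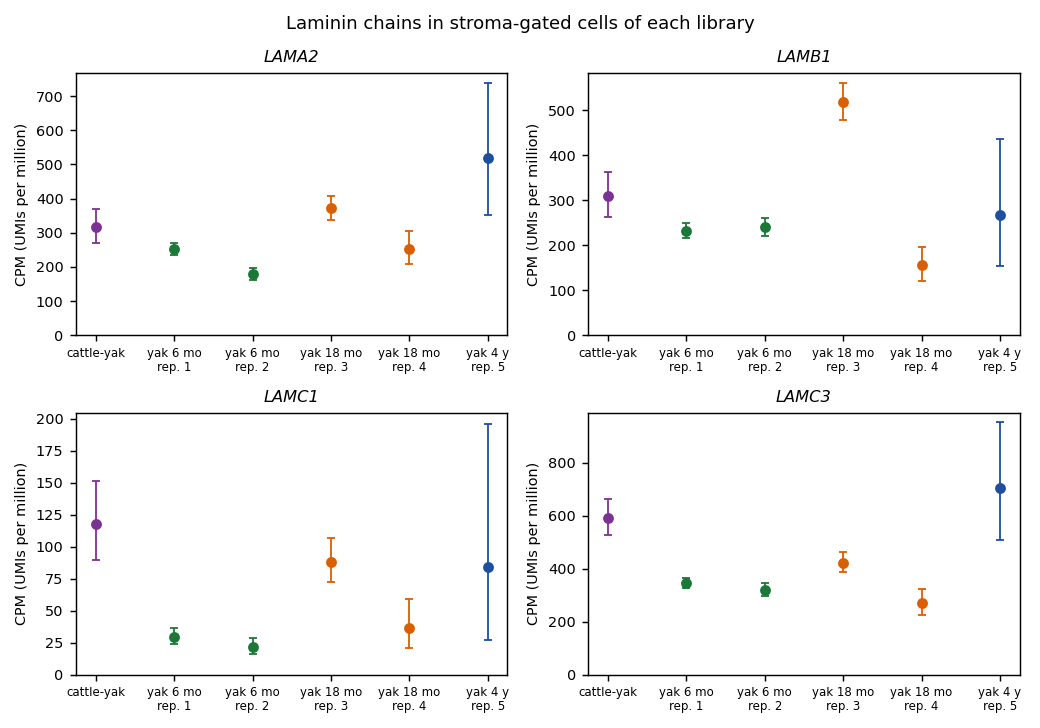
Level of each laminin chain in stroma-gated cells, in CPM with exact 95% Poisson intervals (counting error only), for the cattle-yak library, 2 yak libraries of 6 months, 2 of 18 months and 1 of 4 years. The 2 libraries of 18 months differ from each other in LAMB1 (518 and 156 CPM) and LAMC1 (88.2 and 36.2 CPM) by more than their intervals, as they do in LAMA2 (372 and 253 CPM) and LAMC3 (422 and 269 CPM), and the 4-year intervals are wide because that library had 50 stromal cells.

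Over whole libraries LAMC3 was called as lower at 18 months. Such sums mix the level in a class with the share of that class. Stromal cells were 8.71% and 18.7% of kept cells at 18 months, against 29.5% and 19.2% at 6 months. LAMC3 stood at 64.2 and 36.7 CPM at 18 months, against 134 and 110.2 CPM at 6 months. LAMA2 stood at 49.7 and 22.6 CPM at 18 months, against 87.4 and 57.5 CPM at 6 months. For both genes the 2 ages did not overlap. LAMB1 stood at 83.5 and 26.8 CPM at 18 months, against 90.3 and 85.6 CPM at 6 months, without overlap. LAMC1 stood at 59.1 and 16.0 CPM at 18 months, against 17.0 and 12.0 CPM at 6 months, and overlapped. In cells without a class, LAMC3 stood at 49.8 and 71.2 CPM at 18 months, against 142 and 124 CPM at 6 months. LAMA2 in those cells stood at 36.0 and 37.9 CPM at 18 months, against 82.2 and 59.6 CPM at 6 months. The part of stromal share in the whole-library levels was not tested.

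The edgeR fit scaled the libraries by TMM, whose factors differed by 1.03 log2 units between 18 and 6 months, so its fold changes are relative to the bulk of the genes and lie below ratios of CPM. The same holds within stroma, where the factors differed by 0.33 log2 units and LAMC3 was estimated at -0.29 beside means of 346 and 332 CPM. Over whole libraries LAMC3 fell by 2.36 log2 units at 18 months (log2 fold change -2.36 ± 0.40, edgeR, adjusted p = 0.0427). LAMA2 (-2.13 ± 0.41, adjusted p = 0.0526), LAMB1 (-1.86 ± 0.43, adjusted p = 0.0743) and LAMC1 (0.16 ± 0.46, adjusted p = 0.855) did not pass. Thus 1 of 4 chains was called, where 2.58% of 13553 genes were. The LAMC3 call was lost without replicate 1, 2 or 3 (adjusted p = 0.167, 0.183 and 0.111) and with library totals in place of TMM (-1.27, adjusted p = 0.0557), and kept without replicate 4 (adjusted p = 0.0209). Among partners of laminin, NID1, the nidogen that ties laminin to collagen IV (-2.02 ± 0.37, adjusted p = 0.0473), and TINAGL1, a secreted matrix protein (-2.94 ± 0.39, adjusted p = 0.0342), were lower at 18 months and 15 others of 17 tested did not pass.

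**Figure D3:**
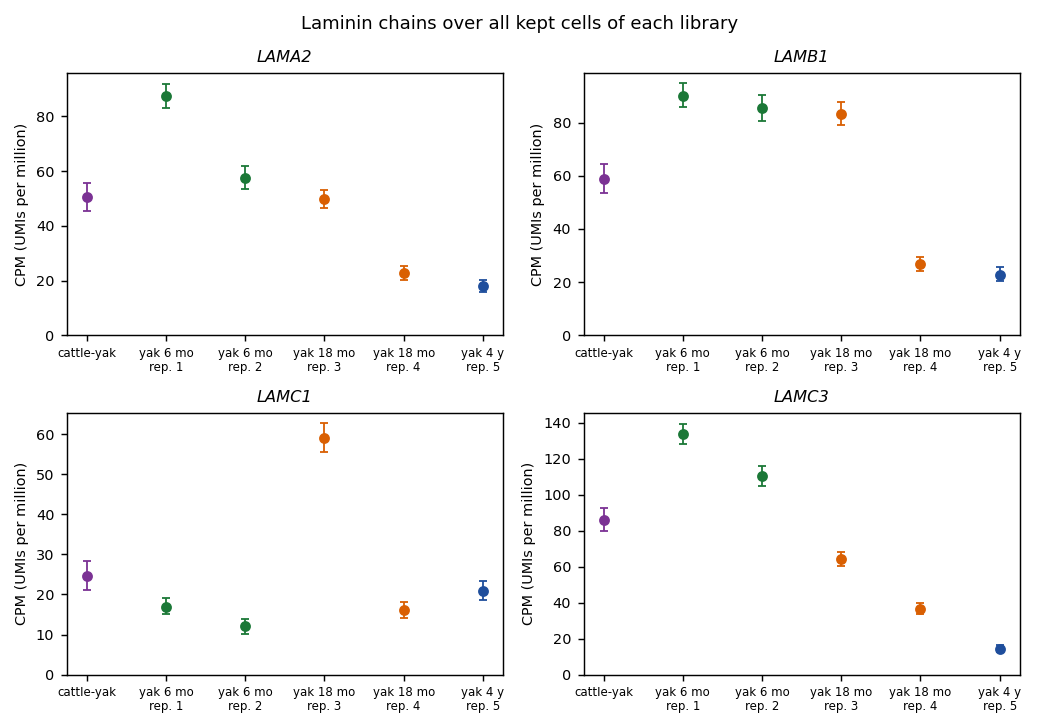
Level of each laminin chain over all kept cells of each library, in CPM with exact 95% Poisson intervals (counting error only), for the cattle-yak, the yaks of 6 and 18 months and the yak of 4 years. LAMC3 is at 64.2 and 36.7 CPM at 18 months and at 134 and 110.2 CPM at 6 months, and LAMC1 is highest in replicate 3, at 59.1 CPM.

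Stroma held a larger share of the chains' UMIs than of all UMIs. In the cattle-yak, 44.3% of LAMC3 UMIs came from stroma, which held 6.44% of all UMIs of that library. In the yaks the stromal share of LAMC3 UMIs was 52.8% and 46.1% at 6 months, 44.8% and 22.7% at 18 months and 21.3% at 4 years. For LAMA2 it was 40.5% in the cattle-yak, 59.1% and 49.5% at 6 months, 51.0% and 34.7% at 18 months and 12.6% at 4 years. Cells without a class held 36.4% to 60.8% of LAMC3 UMIs and 36.9% to 52.6% of LAMA2 UMIs, against 31.3% to 59.8% of all UMIs. Their share of LAMC3 was above that of all UMIs in replicate 4 (60.8% against 31.3%) and below it in replicate 3 (46.4% against 59.8%). These cells did not meet the gate but could carry listed markers, such as INHA at 3089 and 5405 CPM at 6 months. A large part of both chains was therefore in cells that the gate did not resolve.

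In the other classes no chain was called between ages either. Mural LAMC1 stood at 95.9 and 40.6 CPM at 18 months (64 and 16 UMIs), against 5.20 and 29.2 CPM at 6 months (1 and 10 UMIs). The ages did not overlap, though the lowest level rests on 1 UMI. The log2 fold change of mural LAMC1 was 1.71 ± 0.64 (edgeR, unadjusted p = 0.0128, adjusted p = 0.255). It was called without replicate 4 (1.98, adjusted p = 0.0185). Mural LAMB1 (-0.21 ± 0.49, adjusted p = 0.958) and LAMC3 (0.18 ± 0.48, adjusted p = 0.965) were not called, and LAMA2 had too few UMIs for the fit, so 0 of 3 chains passed where 0.969% of genes did. Endothelial LAMB1 (-0.38 ± 0.44, adjusted p = 0.954) and LAMC1 (0.09 ± 0.50, adjusted p = 0.992) were the 2 chains tested there, and 0 passed where 0.264% of genes did. In Sertoli cells 0 of 3 tested chains passed, with LAMC3 at -0.92 ± 0.56 (adjusted p = 0.426), LAMB1 at -0.69 ± 0.56 (adjusted p = 0.548) and LAMC1 at 0.53 ± 0.66 (adjusted p = 0.705), where 0.963% of genes did. The mean Sertoli levels were 5.8 CPM at 18 months and 5.9 CPM at 6 months for LAMC3, and 14.0 and 11.6 CPM for LAMB1. The TMM factors differed by 0.77 log2 units between ages in Sertoli cells, so these estimates lie below ratios of CPM. DESeq2 called 0 chains in each of the 4 classes, and mural LAMC1 was the only other within-class value under an unadjusted p of 0.05.

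**Figure D4:**
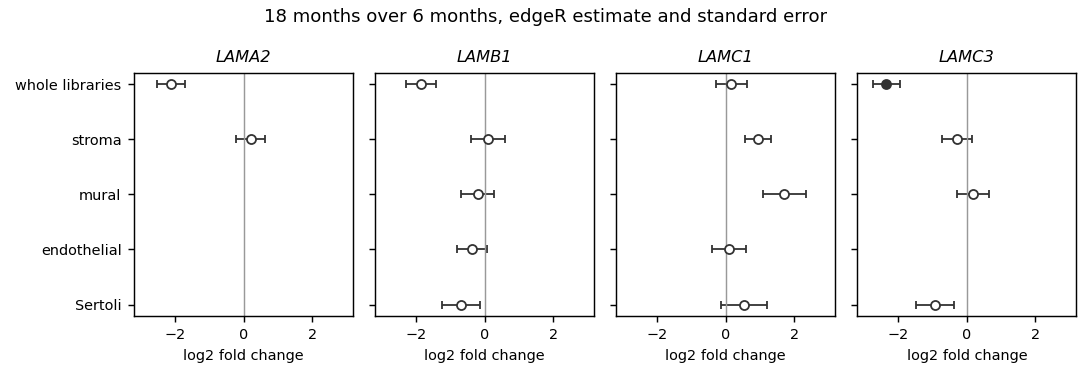
Log2 fold change of 18 months over 6 months from edgeR, for each chain over whole libraries and within stroma, mural, endothelial and Sertoli cells. Bars are standard errors worked back from the estimate and the F statistic of its test. Filled points have an adjusted p below 0.05 and chains with too few UMIs in a class have no point. The only filled point is LAMC3 over whole libraries, at -2.36, and the stromal estimates of LAMA2, LAMB1 and LAMC3 lie within 0.3 of 0.

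The test of whether the age effect differed between classes gave 1 call among the chains. The log2 fold change of LAMA2 was called as lower in Sertoli cells than in stroma (difference -2.69 ± 0.67, edgeR, adjusted p = 0.0233). In that contrast 1.89% of 7556 genes were called. In the age test within Sertoli cells, LAMA2 had too few UMIs for the fit. It entered the present test because the filter on low counts was applied to the sums of all classes together. The call therefore cannot settle whether the age effects differ. The Sertoli levels behind the call were 1.05 and 0.712 CPM at 18 months, from 1 and 4 UMIs, against 2.54 and 3.67 CPM at 6 months, from 13 and 10 UMIs. Lymphocytes of the same libraries held LAMA2 at 4.20 and 1.64 CPM at 18 months, against 7.71 and 1.25 CPM at 6 months. In 3 of 4 libraries the Sertoli level was thus below that of lymphocytes, the class used as the measure of free RNA. The call was lost without replicate 2 (adjusted p = 0.214) or replicate 4 (adjusted p = 0.458). LAMB1, LAMC1 and LAMC3 were not called in this contrast.

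Replicate 3 stood above replicate 4 at 18 months in all 4 chains, over whole libraries and in stroma. LAMB1 in stroma was 518 CPM in replicate 3 and 156 CPM in replicate 4, and LAMC1 was higher in replicate 3 in stroma, mural, endothelial, Sertoli, spermatogonial and lymphocyte cells alike. Among other chains, LAMA1, which encodes alpha 1, the alpha chain of early embryonic basement membranes in the mouse, stood at 215 CPM in stroma of replicate 3 and 24.9 CPM in that of replicate 4, and over whole libraries LAMA3 stood at 30.6 and 8.04 CPM in the same order. The mitochondrial filter removed 38.0% of barcodes in replicate 3 and 20.3% in replicate 4, and the part of cell quality in these differences was not tested.

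At 4 years, with 1 library and no test, LAMA2, LAMB1 and LAMC3 were lower over the whole library than in either library of 18 months. LAMC3 stood at 14.2 CPM at 4 years, 0.222 times replicate 3 of 18 months (95% interval 0.190 to 0.258, counting error only, as for all ratios here) and 0.388 times replicate 4 (0.328 to 0.458). LAMA2 at 17.9 CPM was 0.359 times replicate 3 (0.311 to 0.414) and 0.791 times replicate 4 (0.667 to 0.936). LAMB1 at 22.9 CPM was 0.274 times replicate 3 (0.242 to 0.309) and 0.853 times replicate 4 (0.733 to 0.993). LAMC1 at 20.9 CPM lay between both replicates, at 0.354 times replicate 3 (0.309 to 0.404) and 1.30 times replicate 4 (1.09 to 1.56). LAMA2, LAMB1 and LAMC3 were thus below each library of 18 months by more than counting error, and LAMC1 was not; with the stricter cell filter LAMA2 was 1.20 times replicate 4.

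In the 50 stromal cells of 4 years, which were 1.10% of its kept cells, LAMC3 was higher than in both libraries of 18 months. Stromal LAMC3 was 1.67 times replicate 3 (1.19 to 2.29) and 2.62 times replicate 4 (1.80 to 3.75), from 42 UMIs. Stromal LAMA2 was 1.40 times replicate 3 (0.937 to 2.01) and 2.05 times replicate 4 (1.33 to 3.08), from 31 UMIs. Stromal LAMB1 was 0.518 times replicate 3 (0.294 to 0.848) and 1.72 times replicate 4 (0.932 to 3.00), from 16 UMIs, and stromal LAMC1, from 5 UMIs, had intervals that include 1 against both (0.951 and 2.32). Mural LAMC3 was 2.34 times replicate 3 (1.57 to 3.49) and 2.03 times replicate 4 (1.30 to 3.21), from 61 UMIs, with 1.29 times replicate 4 under a looser marker gate. Mural LAMC1 was at 0.169 times replicate 3 (0.0597 to 0.388) and 0.398 times replicate 4 (0.128 to 1.07), from 6 UMIs, and had 0 UMIs under the stricter cell filter. Mural LAMB1 was 0.600 times replicate 3 (0.369 to 0.945) and 1.15 times replicate 4 (0.635 to 2.09), and 1.03 times replicate 3 under the stricter marker gate. The ages had 1 and 2 libraries, so a difference between ages and a difference between libraries cannot be told apart here.

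The cattle-yak, a hybrid whose males are sterile, had more of 3 chains over the whole library than the yak of 4 years. LAMC3 stood at 86.0 CPM in the cattle-yak and 14.2 CPM in the 4-year yak, a ratio of 6.03 (95% interval 5.14 to 7.11). LAMA2 stood at 50.4 CPM in the cattle-yak and 17.9 CPM in the yak (ratio 2.82, 2.40 to 3.32), and LAMB1 at 58.8 CPM in the cattle-yak and 22.9 CPM in the yak (2.57, 2.22 to 2.98). LAMC1 stood at 24.5 CPM in the cattle-yak and 20.9 CPM in the yak, with an interval that includes 1 (1.17, 0.971 to 1.41). Stromal cells were 11.0% of kept cells in the cattle-yak and 1.10% in the yak, and mural cells 11.0% in the cattle-yak and 3.73% in the yak.

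Within stroma those ratios were not seen. There, LAMC3 stood at 592 CPM in the cattle-yak and 704 CPM in the yak (ratio 0.840, 0.606 to 1.19), LAMB1 at 311 CPM in the cattle-yak and 268 CPM in the yak (1.16, 0.691 to 2.08), and LAMC1 at 117 CPM in the cattle-yak and 83.9 CPM in the yak (1.40, 0.568 to 4.47). Stromal LAMA2 was lower in the cattle-yak by more than counting error, at 317 CPM against 520 CPM in the yak (0.609, 0.413 to 0.926). In mural cells LAMC3 was lower too, at 69.1 CPM in the cattle-yak and 164 CPM in the yak (0.421, 0.300 to 0.594). In endothelial cells LAMC1 was lower, at 39.2 CPM in the cattle-yak and 79.7 CPM in the yak (0.492, 0.327 to 0.726). Endothelial LAMC3 was higher in the cattle-yak, at 7.85 CPM from 7 UMIs against 1.44 CPM from 2 UMIs in the yak (5.46, 1.04 to 53.9). Lymphocytes, the class used as the measure of free RNA, stood at 17.2 CPM of LAMC3 in the cattle-yak and 0.972 CPM in the yak. In cells without a class, LAMC3 kept a ratio of 6.10 (4.76 to 7.89). The groups had 1 library each, so species, animal and library cannot be told apart.

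Endothelial LAMA2 separated the 2 mature libraries from the 4 younger ones. It stood at 30.3 CPM in the cattle-yak (27 UMIs) and at 1.82 and 4.67 CPM at 6 months, 5.81 and 3.27 CPM at 18 months (1 to 3 UMIs each) and 41.7 CPM at 4 years (58 UMIs). Against each 18-month library the 4-year ratio was 7.16 (95% interval 1.90 to 60.5) for replicate 3 and 12.7 (3.37 to 108) for replicate 4. Stromal markers in endothelial cells summed to 40.4 CPM in the cattle-yak, 54.6 and 20.2 CPM at 6 months, 43.6 and 13.1 CPM at 18 months and 17.9 CPM at 4 years. LAMC3, the other stromal chain, was at 7.85 CPM in endothelial cells of the cattle-yak and 1.44 CPM in those of 4 years; the part of stromal RNA was not tested. Over all libraries endothelial cells exceeded lymphocytes in LAMA2 by 1.79 ± 0.51 log2 units (edgeR, adjusted p = 0.00434), a call lost with the stricter cell filter (1.64, adjusted p = 0.0526) and with doublets kept (1.06, adjusted p = 0.0814). In the 4 younger libraries the endothelial levels overlapped those of lymphocytes.

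The mature endothelial class also held more lymphatic cells. Lymphatic markers such as PROX1 summed to 295 CPM in the cattle-yak, 6.22 to 99.7 CPM in the 4 younger libraries and 653 CPM at 4 years. Among endothelial cells with 0 UMIs of those markers, LAMA2 stood at 31.0 CPM in the cattle-yak (165 cells), 1.91 and 5.07 CPM at 6 months, 0 and 3.45 CPM at 18 months and 50.8 CPM at 4 years (405 cells). In 161 cells of 4 years with at least 2 lymphatic UMIs, LAMA2 had 0 of 256084 UMIs (upper 95% limit 14.4 CPM), whereas LAMB1 stood at 109 CPM and LAMC1 at 133 CPM. In 47 such cells of the cattle-yak, LAMA2 had 2 UMIs, or 20.6 CPM (2.50 to 74.6). The part of the lymphatic share in the endothelial LAMA2 levels was not tested.

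**Figure D5:**
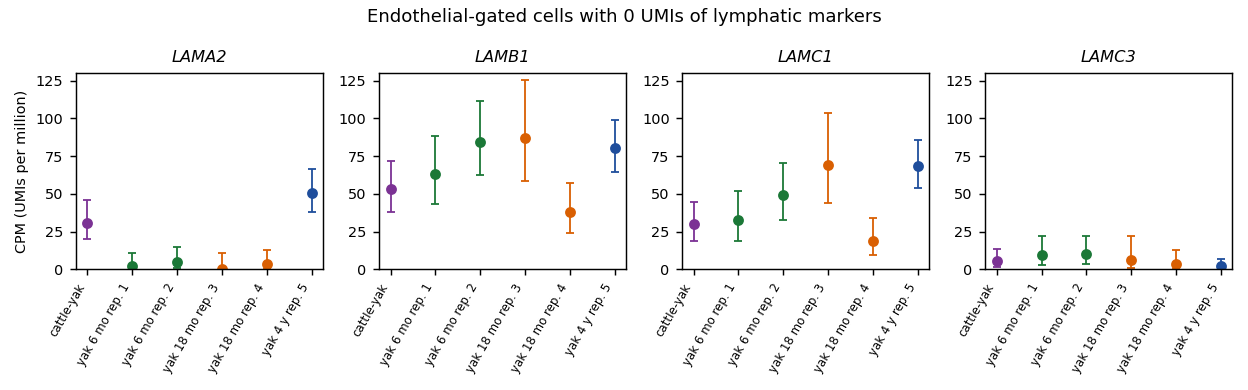
Level of each laminin chain in endothelial-gated cells without a UMI of a lymphatic marker, in CPM with exact 95% Poisson intervals (counting error only), for the cattle-yak and the yaks of 6 months, 18 months and 4 years. LAMA2 is at 31.0 CPM in the cattle-yak and 50.8 CPM at 4 years and at most 5.07 CPM in the 4 younger libraries, while LAMC3 is low in all 6 libraries.

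Single stromal cells rarely showed several chains at once at this depth. With each cell thinned to 1000 UMIs, the share of stromal cells with a LAMC3 UMI was 41.1% in the cattle-yak, 27.4% and 26.6% at 6 months, 27.6% and 21.0% at 18 months and 48.3% at 4 years. Lymphocytes showed LAMC3 in 0.186% to 1.77% of cells by the same measure. LAMA2 was seen in 17.5% to 27.6% of stromal cells and in 0% to 0.885% of lymphocytes. LAMC1 was seen in 10.6% of stromal cells in the cattle-yak, 2.75% and 2.40% at 6 months, 7.57% and 3.93% at 18 months and 6.90% at 4 years. The 4-year library had 50 stromal cells before those under 1000 UMIs were left out, so its shares rest on few cells. Without thinning, median depth was 1125 to 1826 UMIs in stromal cells and 1496 to 3156 UMIs in lymphocytes.

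The alpha 2, beta 1 and gamma 3 combination (LAMA2+LAMB1+LAMC3) was found in 3.40% of thinned stromal cells of the cattle-yak, 2.86% and 2.30% at 6 months, 4.89% and 1.31% at 18 months and 10.3% at 4 years. The alpha 2, beta 1 and gamma 1 combination (LAMA2+LAMB1+LAMC1) was found in 0.755% of those of the cattle-yak, 0.515% and 0.313% at 6 months, 0.946% and 0% at 18 months and 3.45% at 4 years. The 4-year shares of both combinations rest on very few cells, as that library had only 50 stromal cells before shallower ones were left out. Both gamma chains together (LAMC1+LAMC3) were found in 0.835% to 5.28% of stromal cells. Neither combination of 3 chains was found in a thinned lymphocyte of any library. These shares follow the number of UMIs per gene, so they do not count the trimers a cell makes.

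The remaining laminin chains had their highest levels in several classes. LAMB4 had no feature under its symbol. Among the others, LAMA4, the alpha chain of vessel basement membranes, had its highest mean level in endothelial cells (59.2 ± 18.9 CPM, SD over 6 libraries), as did LAMA3 (25.8 ± 19.1 CPM) and LAMA5 (8.32 ± 4.84 CPM). LAMB2 was highest in mural cells (29.0 ± 15.0 CPM) and LAMA1 in stroma (67.6 ± 73.2 CPM), a mean that rests on replicate 3. LAMB3 had 71 UMIs in all libraries together. Of the 4 such chains that could be tested between classes, 3 passed as higher in stroma (38.5% of all genes called in either direction), 3 in mural cells (24.8%) and 3 in endothelial cells (34.2%) than in the mean of the others, and over whole libraries 0 of 5 tested passed between 18 and 6 months.

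Partners and receptors had their own distribution. Of 20 basement membrane partners, 17 had a feature under their symbol, and NID2, HSPG2 and COL18A1 had none. Between classes 14 were tested, and 11 were higher in stroma (38.5% of all genes called in either direction) and 12 in mural cells (24.8%). In endothelial cells 6 were higher and 2 lower (34.2%), and in Sertoli cells 10 were higher and 3 lower (46.1%). NID1 had its highest mean in stroma (100.2 ± 26.0 CPM), and so did COL15A1, a collagen of basement membrane zones (235 ± 144 CPM). COL4A1, a chain of the collagen IV network, was highest in endothelial cells (559 ± 237 CPM). Of 20 laminin receptor genes, 17 had a feature under their symbol, and ITGB1, SDC1 and DMD had none. Of these 17, 11 were tested, and 4 were higher and 2 lower in stroma, 7 higher in mural cells, and 7 higher and 2 lower in endothelial cells, against the same shares over all genes. ITGA6, the integrin alpha 6 chain, was highest in endothelial cells (136 ± 66.8 CPM), and ITGA7, the muscle laminin integrin, in mural cells (11.6 ± 6.56 CPM). DAG1, the dystroglycan gene, reached only 4.74 ± 4.37 CPM in mural cells, its highest class. Of 11 genes for the sugar chain of dystroglycan that LAMA2 binds, 9 had a feature under their symbol and 3 were tested. Of the 3, 1 was higher in stroma and 1 lower in mural cells, near the shares over all genes (38.5% and 24.8%).

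Across 41 sums of a class in a library, the genes most like each chain were found among 5651 genes by Pearson correlation of log2(CPM + 10), as a description of values that share libraries and depth. The pattern of LAMA2 was most like those of ABI3BP (r = 0.911), COL5A2 (0.902), EDNRA (0.900), NID1 (0.896) and PCDH18 (0.896). That of LAMC3 was most like NTRK2 (0.934), EDNRA (0.931), COL6A2 (0.926), PCDH18 (0.922) and SPON1 (0.921), and that of LAMB1 like FBN1 (0.938), SEMA4C (0.930), ADGRA2 (0.920), COL5A2 (0.893) and COL15A1 (0.887). LAMC1 had no gene as close, with PHLDB2 (0.833), LMO7 (0.830), CALU (0.829), APBB2 (0.805) and FSTL1 (0.804). Among the chains themselves r was 0.876 for LAMA2 with LAMC3, 0.818 for LAMA2 with LAMB1, 0.770 for LAMB1 with LAMC1, 0.572 for LAMA2 with LAMC1 and 0.512 for LAMC1 with LAMC3.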

How the data were processed

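The authors deposited raw UMI counts per gene and barcode for 6 libraries, made with Cell Ranger (5.0.0 in the headers of the matrices, 2.1.1 in the submitters' processing notes); genome build and chemistry are not given in the sources used here. The lowest barcode total was 500 UMIs, and gene symbols are those of the files. The reference table (assembly Bosgru_T2T1.0) matched the 4 symbols but no identifiers, so no positions are printed. Barcodes under 300 genes or over 20% mitochondrial UMIs were removed (scanpy 1.11.5, Python 3.11.15). Scrublet's own threshold marked 269 and 181 barcodes at 6 months and at most 1 in each other library, so 0.8% per 1000 barcodes were removed by rank of its score. A class needed at least 3 UMIs from at least 2 of its markers and 3 times the next class. Counts were summed per library and class (at least 20 cells) and tested with edgeR 4.0.16 (R 4.3.3; TMM, filterByExpr, quasi-likelihood test, Benjamini-Hochberg over all genes tested, threshold 0.05). Contrasts between classes kept the library as a term, as did the difference between classes in the age effect. The tests were run on simulated counts with the same spread for all genes and no shift in cell composition between ages. The libraries here differ from that setting, so the run does not give the error rates of the tests in these data. Comparisons with 1 library have no test and are given as ratios with exact conditional binomial intervals; Poisson and binomial intervals (95%) are exact and cover counting error only. Shares of cells were taken after thinning to 1000 UMIs, without shallower cells. DESeq2 1.42.0, other scalings, filters, gates and left-out libraries were the alternatives. The genes named are the 4 chains, list members that passed a test or whose highest class is given, and the 5 genes most like each chain. LAMA1 and LAMA3 in replicates 3 and 4 and the endothelial subsets were chosen after values were seen. The members and lists were chosen with earlier results of these data known. Replicate libraries differed by more than counting error (chi-square per degree of freedom 50.5 at 6 months and 177 at 18 months).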

Additional observations from a re-analysis of the deposited data

Results flagged for a closer look

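The effect of age on LAMA2 was called as different between Sertoli cells and stroma in the test of the difference itself, for 1 of 4 chains. The change of 18 over 6 months was lower in Sertoli cells by 2.69 log2 units (-2.69 ± 0.67, edgeR, adjusted p = 0.0233). LAMA2 had too few UMIs for the age test within Sertoli cells, and it passed the filter here through the sums of the other classes. Over the alternatives with a value, the difference ran from -4.55 to -2.11 and the adjusted p from 0.0002 to 0.458. The Sertoli sums held 1 and 4 UMIs of LAMA2 at 18 months and 13 and 10 at 6 months, and their levels were below those of lymphocytes in 3 of the 4 libraries.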

How the results depend on the processing

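Counts of chains called at an adjusted p below 0.05 (edgeR unless named) depended on the processing as follows. For 18 over 6 months over whole libraries, where LAMC3 was called, the count was 3 with DESeq2, 3 with no filter on low counts, 3 with the stricter cell filter, 0 with library totals without TMM, and 0 to 3 without 1 replicate; the added calls were LAMA2 and LAMB1. Without 1 replicate the count within stroma and within mural cells was 0 to 1. Between mural and endothelial cells it was 1 with the stricter marker gate and 1 to 2 without 1 replicate. Between lymphocytes and spermatogonia it was 2 with library totals and 2 with doublets kept. For the difference between Sertoli cells and stroma in the age effect it was 0 with DESeq2, library totals, the stricter cell filter or the stricter gate, 2 with doublets kept, and 0 to 1 without 1 replicate. The cause was not tested. With the stricter cell filter (500 genes, 10% mitochondrial UMIs) the whole-library ratios of cattle-yak over 4-year yak were 3.33 for LAMA2, 3.53 for LAMB1, 1.53 for LAMC1 and 7.22 for LAMC3. Those of 4 years over replicate 3 of 18 months were 0.205 for LAMB1, 0.191 for LAMC1 and 0.151 for LAMC3, and over replicate 4 they were 1.20 for LAMA2 and 0.774 for LAMC1, so these 2 crossed 1.

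Estimates that changed sign were all uncalled. With library totals they were LAMB1 in Sertoli cells with age (0.12), LAMC3 in stroma with age (0.076), LAMC1 in the Sertoli minus stroma age effect (0.081), endothelial LAMA2 over the mean of the others (0.12), and LAMA2 (-0.15) and LAMC3 (-0.10) in Sertoli cells over lymphocytes. With the stricter gate they were endothelial LAMA2 (0.20), LAMB1 in mural over endothelial cells (-0.0017), LAMA2 in Sertoli cells over lymphocytes (-0.066) and LAMB1 in lymphocytes over spermatogonia (-0.62). The others were LAMB1 in stroma with age under DESeq2 (-0.034), endothelial LAMA2 with no filter (0.024), LAMC1 in Sertoli cells with age under the stricter cell filter (-0.40) and LAMC3 in lymphocytes over spermatogonia with doublets kept (0.29). Without 1 replicate, age estimates ran from -0.46 to 0.63 for LAMC1 over whole libraries, -0.28 to 1.84 for LAMC1 in Sertoli cells, -0.68 to 0.42 for LAMB1 in stroma, -0.66 to 0.092 for LAMB1 and -0.12 to 0.38 for LAMC3 in mural cells, -0.78 to 0.59 for endothelial LAMC1, and -0.73 to 0.78 for LAMC1 in the Sertoli minus stroma difference. Without 1 replicate, class estimates ran from 0.045 to 0.24 for endothelial LAMA2 over the mean of the others, -0.32 to 0.63 for LAMA2 and -0.040 to 0.39 for LAMC3 in Sertoli cells over lymphocytes, and -0.14 to 0.28 for LAMC3 in lymphocytes over spermatogonia.

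No paired analysis was made because the labels do not pair libraries of different groups. The looser gate was chosen after seeing the data. With 2 libraries an age and 1 in each mature group, the number of libraries limits the comparisons, and low counts limit LAMA2 and LAMC3 outside stroma and mural cells.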
